A study of Homo sapiens with 4 samples.

Results

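The clustered histone genes are the protein-coding genes of the replication-dependent histone gene clusters, which supply the histones H1, H2A, H2B, H3 and H4. They were taken as the protein-coding genes of the deposited table whose symbols begin with HIST1H, HIST2H, HIST3H or HIST4H, and where a symbol was listed more than once the entry with the highest mean over the 4 libraries was kept. This gave 71 genes of the 63677 listed, made up of 6 H1, 17 H2A, 18 H2B, 15 H3 and 15 H4 genes. Of these, 55 lie in the HIST1 cluster on chromosome 6, 12 in HIST2 and 3 in HIST3 on chromosome 1, and 1 is HIST4H4 on chromosome 12.

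The libraries came from MDA-MB-231, an established line of human triple-negative breast cancer cells. The study's methods describe a line that carries luciferase (MDA-MB-231-Luc), but the labels name only MDA-MB-231. Cells were transfected, by the study's methods with a lipid reagent (Lipofectamine), with either a control siRNA (siCt, 2 libraries) or a commercial siRNA pool against the receptor tyrosine kinase AXL (siAxl, 2 libraries), so that both groups carry an siRNA and the transfection reagent. The time after transfection is not given in the sources used here, and the siAxl group is a single pool, so that effects of AXL loss and other effects of the pool cannot be told apart. The labels do not say whether libraries 1 and 2 of a group were separate cultures, and p-values then measure only the spread between these libraries.

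Each nucleosome wraps DNA around a core of H2A, H2B, H3 and H4, and the linker histone H1 binds where the DNA enters and leaves. Most mRNAs of the clustered genes are made in S phase and end not in a poly(A) tail but in a short stem-loop, which is bound by the stem-loop binding protein SLBP. Some of these genes can also be read past the stem-loop to a polyadenylation signal, which gives a tailed mRNA that cells can hold outside S phase.

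Stem-loops of 6 members are shown because this element sets the group apart from other mRNAs and because the length of transcript beyond it differs between members. They come from GENCODE release 29 coding transcripts, 5′ to 3′, and capitals mark the 16-base match to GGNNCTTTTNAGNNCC, which was searched for on the transcript strand.
HIST2H2BE: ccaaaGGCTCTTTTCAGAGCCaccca
HIST1H2AC: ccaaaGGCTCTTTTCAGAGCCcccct
HIST1H2AG: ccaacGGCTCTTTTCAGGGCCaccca
HIST1H2BD: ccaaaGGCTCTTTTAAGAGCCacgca
HIST1H4H: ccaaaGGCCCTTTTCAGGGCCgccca
HIST1H4J: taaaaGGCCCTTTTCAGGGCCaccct

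The stem-loop letters were found in the transcripts of 31 of the 71 members (43.7%) and of 21 of the 19598 other protein-coding genes (0.107%). For the other 40 members no match was found. Most of their models hold little or no sequence after the coding part, as for HIST1H1C with 642 bases and HIST1H2BK with 381. A loop beyond the end of a model could not be found, so 43.7% is not the share of members that have one. The annotated transcript ran 1729 bases past the loop in HIST2H2BE, 1761 in HIST1H2AG, 1114 in HIST1H2AC and 630 in HIST1H4H. The transcript that holds the loop ended 39 bases after it in HIST1H2BD, which has another model without it, and 6 bases after it in HIST1H4J. In 14 members a transcript ran at least 100 bases past the loop and had AATAAA or ATTAAA in its last 50 bases, and 8 of these 14 had reads. In 9 members the transcript ended within 100 bases of the loop, and 7 of these 9 had reads.

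The promoters of 4 members are shown around a single motif each, since histone types differed in the motifs they held. They are RefSeq sequences of build GRCh38.p14, written on the strand of the gene, with the octamer ATTTGCAT or the CCAAT box in capitals.
HIST2H2BE (chr1:149886710-149886739, minus strand): tcggagccctaATTTGCATaaggtggttat
HIST1H2BK (chr6:27146886-27146915, minus strand): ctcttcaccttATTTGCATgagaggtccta
HIST1H2BJ (chr6:27132824-27132853, minus strand): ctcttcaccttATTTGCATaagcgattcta
HIST1H1C (chr6:26056510-26056539, minus strand): gcgaccagagcaCCAATcagagcgcgcctg

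Promoters, each from 250 bases before to 50 after a gene start, were found for 61 of the 71 members and searched on both strands. The octamer ATTTGCAT, a binding site of POU-domain factors and a known element of H2B promoters, was in 66.7% of H2B promoters and 68.8% of H2A promoters, against 1.71% of the promoters of other genes. It was in 6.67% of H3 promoters and in none of the 6 H1 and 13 H4 promoters. CCAAT was in all H1, H2A, H2B and H3 promoters, in 23.1% of H4 promoters and in 34.5% of other promoters. TATAAA was in 67.7% of the members' promoters and 11.4% of others. Many H2A and H2B promoters overlap, because the genes are paired head to head. The HIST2H2BE and HIST2H2AC starts lie 323 bases apart and those of HIST1H2BJ and HIST1H2AG 292 apart. Such a pair can share 1 octamer, which is then counted for each gene. Those of HIST1H2BC and HIST1H2AC lie 219 apart, but no promoter was found for HIST1H2BC. A match describes the letters and does not show that a factor binds.

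The values are normalised read counts, the reads of a gene divided by the size factor of its library. The libraries held 39574387 to 44585773 reads, and replicate libraries differed beyond sampling noise (over genes with at least 10 reads, chi-square per gene 20.1 in siCt and 18.2 in siAxl). AXL, the targeted gene, had 29189 and 30617 normalised counts in the siCt libraries and 8658 and 7141 in the siAxl libraries, so that both knockdown libraries lay below both controls (log2 fold change -1.93, adjusted p = 0.000585). VIM and CD44, which are high in mesenchymal breast cancer lines, had at least 33968 counts in every library, while the hormone receptor genes ESR1 and PGR had at most 3.25. Of the other genes taken as low in this line, CDH1 had 22.6 to 94.3 counts. EPCAM, with 565 to 771 counts, and ERBB2, with 2949 to 3680, were not near 0. Of markers of other cells, the endothelial PECAM1 was at 0 in every library, the leukocyte gene PTPRC had 7.77 to 16.7 counts and the collagen gene COL1A2 had 225.3 to 351.6 and rose in siAxl (0.48, adjusted p = 0.0333). The epithelial gene CDH1 fell (-1.64, adjusted p = 0.00847), ERBB2 rose (0.26, adjusted p = 0.0258) and EPCAM, another epithelial gene, was higher in both siAxl libraries (0.32, limma adjusted p = 0.0513, edgeR 0.043), and the part of these genes in the histone values was not tested. In bulk RNA, fewer cells expressing a gene and less RNA per cell cannot be told apart.

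Few of the clustered histone genes gave more than a handful of reads. In 28 of the 71 members no read was counted in any library, which allows at most 0.0673 to 0.0758 CPM (3 reads per library, counting error only). For 5 of these 28 under 10% of the 50-base words of their transcripts were found in no other gene, and for HIST1H3D, HIST2H3A, HIST2H3C and HIST2H3PS2 none was, so a count of 0 sets no limit there. Another 26 had 1 to 40 reads over the 4 libraries together. Members with over 1000 reads numbered 5. All members together took 0.0147% to 0.0178% of the reads of a library, with exact 95% binomial intervals reaching from 0.0144% to 0.0182%.

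Most of the reads lay in a few genes. HIST1H2BK, HIST1H2AC, HIST1H1C and HIST1H2BD held 86.1% of the normalised counts of all members, and with HIST2H2BE and HIST1H4H the share was 92.2%. All 6 are among the 11 members listed here as known to give polyadenylated transcripts as well. These 11 held 93.5% to 94.6% of the members' reads in each library (exact 95% intervals between 92.9% and 95.1%). Of the 11, 9 had enough reads to test, HIST2H2AA4 had a single read and HIST3H2A had none. The list was written with earlier results of these data known, and the labels name total RNA and standard Illumina protocols without saying how RNA was selected. Counts were not divided by transcript length, so these shares order the reads and not the amounts of mRNA.

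Among H1 genes, HIST1H1C (histone H1.2) held 97.3% of the counts and HIST1H1E (H1.4) the rest, and the other 4 were at 0. Among H2A genes, HIST1H2AC held 93.4%. HIST1H2BK held 62.8% of the H2B counts and HIST1H4H held 78.4% of the H4 counts. H3 had no such dominant gene, since HIST1H3C held 28.9% of a small total and 9 of the 15 H3 genes had no reads.

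Sequence shared between copies limits some of these values. Of the 50-base words in the coding transcripts of HIST1H2BK, 25.9% occurred in no other gene of GENCODE 29, against 91.9% for HIST2H2BE and 100% for HIST1H1C. The HIST1H2BK model has 381 bases and that of HIST2H2BE 2194, with 1729 past the stem-loop, so the 2 shares cover unlike stretches. The annotation used for counting is not given, so these shares need not hold for the reads counted. For HIST2H2AA3 the share was 0%, so no 50-base word of these models is its own, and for HIST1H4J the share was 18.8%. Counts of HIST1H2BK, HIST2H2AA3 and HIST1H4J are therefore uncertain. The median share was 100% for members without reads, with a lowest value of 0%, 96.2% for members with too few reads to test and 95.6% for those tested.

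**Figure D1:**
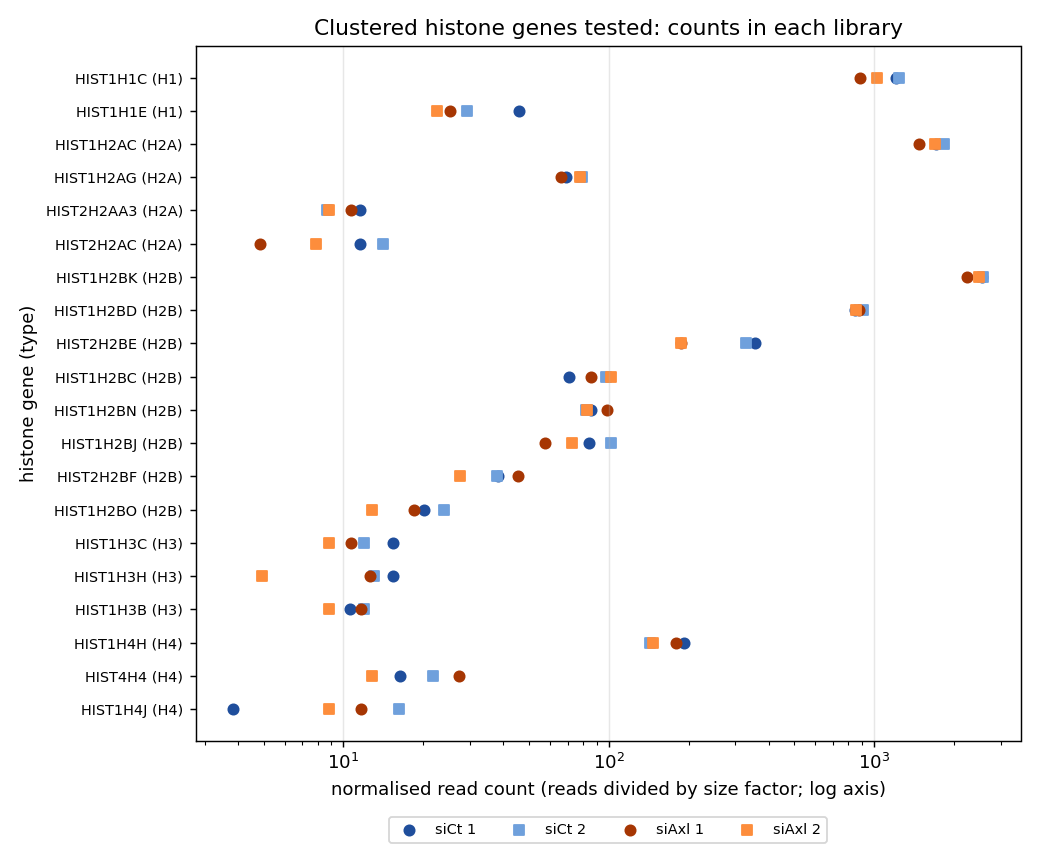
Normalised read counts (log x axis) of the 20 clustered histone genes tested, 1 line per gene, ordered by histone type and mean, with circles for library number 1 and squares for number 2 (siCt blue, siAxl brown and orange); points with nearly equal values hide each other. HIST2H2BE shows the widest clear gap, with 328 and 357 counts in siCt and 187 and 188 in siAxl.

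The first comparison asks how the clustered histone genes changed when AXL was depleted. In summed normalised counts, all members together came to 7417 and 7629 in siCt and to 6382 and 6870 in siAxl, so both siAxl sums lay below both siCt sums (log2 ratio of the means -0.18). Enough reads for a test, by edgeR's filterByExpr, were found for 20 members, namely 2 H1, 4 H2A, 8 H2B, 3 H3 and 3 H4 genes. A member that passes this filter only through the group where it is high had to differ between the groups, so the 20 do not stand for all 71. HIST2H2AC is such a member, with 12 and 13 reads in siCt and 5 and 8 in siAxl, and it is included in the counts over the 20.

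HIST2H2BE and HIST1H1C fell in siAxl, and they were the 2 members of 20 called by limma at a Benjamini-Hochberg adjusted p under 0.05. Over all 16064 genes tested, 18.7% were called, 7.91% lower in siAxl and 10.8% higher, so the members' count is below the background in sum and near it for lower genes. No member was called higher by limma, edgeR or DESeq2, and none was higher at an unadjusted p under 0.05, as 18.1% of all genes were. The 2 calls were the same genes in edgeR and in DESeq2, where 19.4% and 20.1% of all genes with an adjusted p were called, though DESeq2 gave no adjusted p for 10 of the 20 members. The estimate was below 0 for 17 of the 20, with a median log2 fold change of -0.13, against -0.0022 over all genes tested. That median was -0.28 without siAxl 1, -0.21 without siCt 1 and -0.32 when every gene with at least 1 read was tested, which adds members of few reads. In 10 of the 20 members both siAxl values were under both siCt values, and in 0 they were over them, where 30.5% and 30.6% of all genes were so placed. An exact permutation test of 2 libraries against 2 cannot give a two-sided p under 0.333, so a single gene is tested only through limma's spread pooled over genes.

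HIST2H2BE, which encodes a core histone H2B and lies in the HIST2 cluster on chromosome 1 (GRCh38, 149884459 to 149886652, minus strand, a single exon), had 357 and 328 normalised counts in siCt and 187 and 188 in siAxl. The groups were far apart relative to the spread within each. The log2 fold change was -0.86 (SE 0.109, 95% interval -1.12 to -0.61, adjusted p = 0.00405, n = 2 per group). Its siAxl mean was 54.8% of the siCt mean, and leaving out any 1 library kept the log2 fold change between -0.92 and -0.80. In those fits 1 group is a lone library that is assumed to vary like the other, so their p-values are not given as support.

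HIST1H1C, the gene of linker histone H1.2 on chromosome 6 (GRCh38, 26055787 to 26056428, minus strand, a single exon), had 1210 and 1235 counts in siCt and 885 and 1028 in siAxl. The groups did not overlap, but siAxl 1 was lower than siAxl 2. The log2 fold change was -0.36 (SE 0.0877, 95% interval -0.56 to -0.15, adjusted p = 0.0321). The call was lost without siAxl 1 (-0.25, adjusted p = 0.166) and when every gene with at least 1 read was tested (adjusted p = 0.0987).

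The other H1 gene with reads, HIST1H1E (H1.4), had 46.0 and 29.3 counts in siCt and 25.3 and 22.6 in siAxl. The siAxl values lay below both siCt values, of which 1 was much the higher, and the difference did not pass the test (log2 fold change -0.60, adjusted p = 0.194).

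Of the 4 H2A genes tested none was called by limma or edgeR in the fits by condition alone. None had an unadjusted p under 0.05 in limma. DESeq2 called neither HIST1H2AC nor HIST1H2AG, and it gave no adjusted p for HIST2H2AC and HIST2H2AA3. HIST1H2AC, which encodes a canonical H2A and is by far the most read of this type, had 1705 and 1831 counts in siCt and 1479 and 1689 in siAxl. The highest siAxl library lay just under the lowest siCt library (log2 fold change -0.16, 95% interval -0.36 to 0.035, adjusted p = 0.223). HIST2H2AC, the head-to-head neighbour of HIST2H2BE, had 11.5 and 14.1 counts in siCt and 4.86 and 7.86 in siAxl. The groups did not overlap, but at so few reads the interval reached 0.018 (log2 fold change -0.93, adjusted p = 0.153). HIST2H2AC passed the read filter only through the siCt libraries, so its lower siAxl values are no support for a fall. HIST1H2AG had 69.0 and 79.1 against 66.0 and 77.6 counts, and HIST2H2AA3 stood at 8.67 to 11.5 counts in all libraries, both with overlapping groups.

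H2B was the type with the most genes in the test. HIST1H2BK, the most read of all members, had 2549 and 2570 counts in siCt and 2233 and 2472 in siAxl. Both siAxl values were lower, yet the 2 siAxl libraries differed more from each other than the nearest pair of the groups (log2 fold change -0.12, adjusted p = 0.252). HIST1H2BJ had 84.4 and 101.9 counts in siCt and 57.3 and 72.7 in siAxl. It was lower at an unadjusted p under 0.05 in limma but was not called after adjustment (log2 fold change -0.52, SE 0.197, adjusted p = 0.114).

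The remaining H2B genes did not move together. HIST1H2BD, with 848 and 904 counts in siCt and 879 and 853 in siAxl, had a log2 fold change of -0.016 with a 95% interval of -0.19 to 0.16. HIST1H2BC, the head-to-head neighbour of HIST1H2AC, had 71.0 and 97.5 counts in siCt and 85.5 and 102.2 in siAxl (log2 fold change 0.17, adjusted p = 0.623). The groups of both genes overlapped. HIST1H2BN (0.10), HIST2H2BF (-0.10) and HIST1H2BO (-0.49) had log2 fold changes whose intervals all covered 0. HIST1H2BN, whose longest transcript has 4137 bases, shares 393 exon bases with HIST1H2AK on the opposite strand. Since the strand setting of the counting is not given, reads in that shared stretch cannot be told apart.

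H3 was sparsely read. Its summed counts were 47.9 and 48.8 in siCt and 38.8 and 26.5 in siAxl, a log2 ratio of -0.56. HIST1H3H had 15.3 and 13.0 counts in siCt and 12.6 and 4.91 in siAxl, and HIST1H3C had 15.3 and 11.9 against 10.7 and 8.84. Both encode the replication-type histone H3.1, and the siAxl values lay below the siCt values in each, with log2 fold changes of -0.75 and -0.44 and adjusted p of 0.31 and 0.429. The HIST1H3H value was -0.15 without siAxl 2 and -1.36 without siAxl 1. HIST1H3B, also an H3.1 gene, overlapped between groups at 8.84 to 11.9 counts. None of the 3 passed an unadjusted p under 0.05 in limma, and none was called in edgeR. DESeq2 gave none of them an adjusted p, so it could not call them.

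H4 showed no difference beyond the spread. The sums were 228 and 199 in siCt and 234 and 181 in siAxl, a log2 ratio of -0.044. HIST1H4H had 192 and 143 counts in siCt and 180 and 146 in siAxl, with the number 1 library higher in each group (log2 fold change -0.030, 95% interval -0.46 to 0.40). HIST4H4 had 16.3 and 21.7 against 27.2 and 12.8 counts, and HIST1H4J 3.84 and 16.3 against 11.7 and 8.84, each with overlapping groups. The sign of the HIST4H4 difference turned from -0.0072 to positive values under edgeR, DESeq2 and a pseudocount of 8. All clustered H4 genes that encode the canonical protein give the same H4, so these mRNAs cannot be told apart at the protein.

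**Figure D2:**
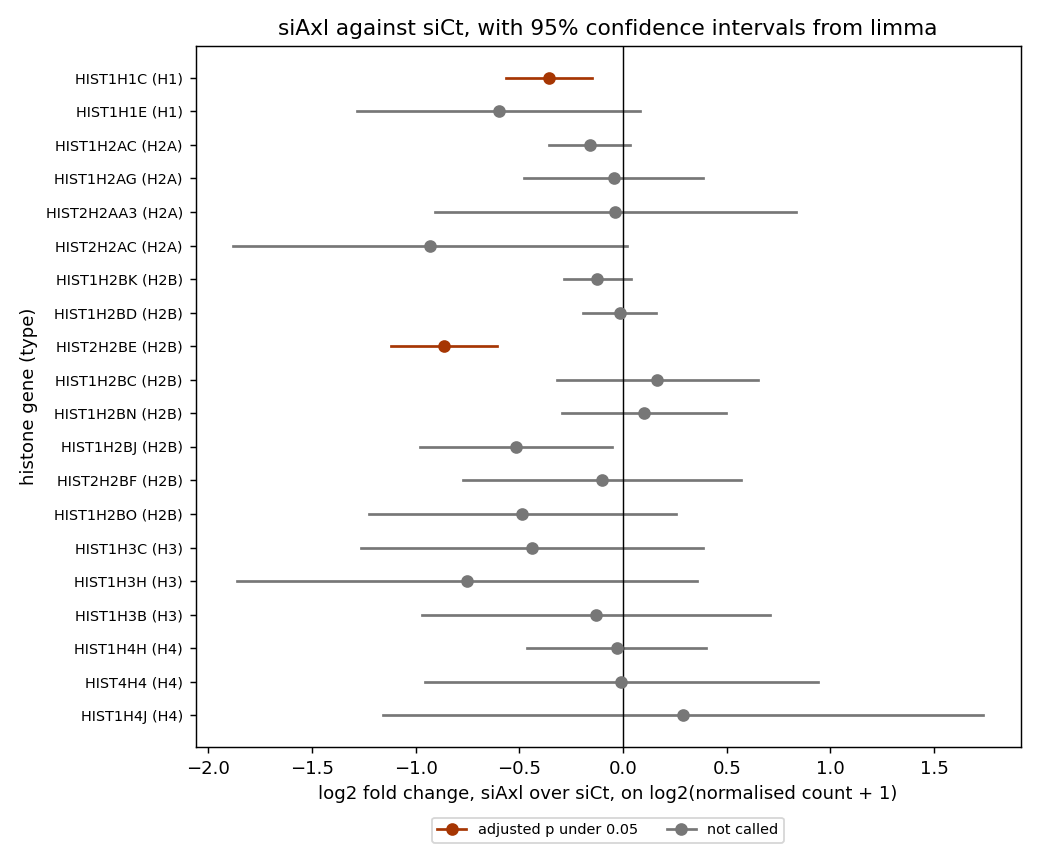
Log2 fold change of siAxl over siCt for the 20 clustered histone genes tested, with bars for the 95% confidence interval from limma (n = 2 libraries per group), ordered by type. The brown points, HIST1H1C at -0.36 and HIST2H2BE at -0.86, passed an adjusted p under 0.05 and the grey ones did not.

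By cluster, the HIST2 genes summed to 424 and 389 counts in siCt and 249 and 233 in siAxl (log2 ratio -0.76), and the HIST1 genes to 6977 and 7218 against 6106 and 6625 (-0.16). HIST2H2BE alone held 81.9% of the HIST2 counts, so the difference between the clusters is in the main that gene, and it was not tested. The 23 members with reads that could not be tested had 1 to 27 reads each over the 4 libraries, and together 61 and 63 reads in siCt and 55 and 36 in siAxl. Among the 9 tested members known to give polyadenylated transcripts, 2 fell (HIST2H2BE and HIST1H1C) and the median was -0.036, where 7.91% of all genes were called lower and 18.7% in either direction. For the members without reads no change could be detected at this depth.

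Genes that act on the same supply of histones are given for comparison, from lists written with earlier results known. Of the 23 genes for transcription and 3′ end processing of histone mRNA, 3 fell and 2 rose in limma, where 18.7% of all genes were called, and the median log2 fold change was -0.13. CCNE2, a cyclin that activates CDK2 at the start of S phase, had 1843 and 1818 counts in siCt and 1131 and 1215 in siAxl (log2 fold change -0.64, adjusted p = 0.00265). LSM1, a member of the cytoplasmic ring that promotes mRNA decay, rose from 621 and 534 to 794 and 872 (0.53, adjusted p = 0.0149). CSTF2, a cleavage stimulation factor, fell by 0.32 on the log2 scale (adjusted p = 0.0244). SLBP, which binds the stem-loop, had 3933 and 3888 counts in siCt and 3338 and 3405 in siAxl and also fell (-0.21, adjusted p = 0.0348). NPAT, the coactivator of histone gene transcription, rose from 1716 and 1735 to 2017 and 2078 (0.25, adjusted p = 0.0308). SLBP and NPAT thus moved in opposite directions.

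Among these lists, that of S phase genes had the most calls for its size. Of its 25 genes, 18 fell and 0 rose in limma, 19 and 0 in edgeR, and 16 and 0 in DESeq2, and none rose at an unadjusted p under 0.05. Over all genes tested, limma called 7.91% lower and 10.8% higher, and 18.1% were higher at an unadjusted p under 0.05. In either direction, edgeR called 19.4% and DESeq2 20.1% of genes with an adjusted p. The median of the S phase list was -0.32, beside -0.13 for the 20 clustered histone genes. Without siAxl 1 these medians were -0.27 and -0.28, and with every gene of at least 1 read tested both were -0.32, so no difference between the lists is drawn from them. The replication factor MCM10 had 2282 and 2287 counts in siCt and 1440 and 1497 in siAxl (-0.64, adjusted p = 0.00212), and E2F1, a transcription factor of S phase entry, had 3625 and 3568 against 2571 and 2462 (-0.52, adjusted p = 0.00304). CCNE2 is in this list too. The part that cell cycle phase plays in the histone values was not tested.

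Of the 23 histone chaperones and their partners, 7 fell and 3 rose in limma, with a median of -0.15. Over all genes tested, 7.91% were called lower and 10.8% higher. CHAF1B and CHAF1A, subunits of the CAF-1 complex that deposits H3 and H4 behind the replication fork, fell by 0.44 and 0.33 on the log2 scale (adjusted p = 0.00925 and 0.0102). MCM2, a helicase subunit that binds histones, fell by 0.42 (adjusted p = 0.00997) and is counted in the S phase list as well. The 3 that rose in limma were ATRX (0.35, adjusted p = 0.0107), UBN1 (0.33, adjusted p = 0.011) and SET (0.20, adjusted p = 0.048).

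The histone variant genes outside the clusters mostly give polyadenylated mRNAs, are for the most part expressed throughout the cell cycle and were read far more deeply. Of 11 listed, 10 were tested (H2AFY2 had no reads), and 3 fell and 0 rose in limma, in edgeR and in DESeq2, with 0 higher at an unadjusted p under 0.05. Shares over all genes in limma were 7.91% lower and 10.8% higher, and 18.1% higher at an unadjusted p under 0.05. In either direction, edgeR called 19.4% and DESeq2 20.1% of genes with an adjusted p. The median log2 fold change of these 10 variant genes was -0.039. H1FX, a linker histone, had 2302 and 2514 counts in siCt and 2012 and 1900 in siAxl (-0.30, adjusted p = 0.0279). H2AFY, which encodes macroH2A1, had 14193 and 14459 against 12291 and 12446 (-0.21, adjusted p = 0.0323), and H2AFZ, which encodes H2A.Z, fell by the same amount (-0.21, adjusted p = 0.0472). H3F3A and H3F3B, the genes of the replacement histone H3.3, had log2 fold changes of 0.051 and -0.025.

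The libraries differed in some RNAs that lack a poly(A) tail, which most mRNAs of the clustered genes lack too. RN7SK, a small nuclear RNA that holds back transcription elongation, had 47.0 normalised counts in siCt 1 and 250.3 in siCt 2, and 67.0 and 56.0 in the siAxl libraries. RMRP, an RNA of a ribonuclease complex, had 5.75, 87.8, 9.71 and 8.84 in the same order. Summed over the 15 such RNAs listed, siCt 2 had 825.6 counts and the others 185.7 to 218.6. The excess in siCt 2 lay mostly in RN7SK, RN7SL1, RN7SL2, RMRP and RPPH1. SNORD3A, with 12.5, 14.1, 4.86 and 16.7 counts, and TERC, with 3.84, 3.25, 1.94 and 1.97, did not show it. SCARNA and Y RNAs in the list were at or near 0 in every library, and VTRNA1-1 and RNY3 were at 0 in all 4.

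The clustered histone genes did not show an excess of this size in siCt 2. In each library 93.5% to 94.6% of their reads lay in members known to give polyadenylated transcripts as well. That list was written with earlier results known, and reads from tailed and untailed mRNAs of these genes were not separated. The comparison therefore cannot speak for histone mRNAs without a tail. The sums of all members in siCt 1 and siCt 2 were 7417 and 7629. The siCt 2 library was the highest, by a small margin, in HIST1H2BK, HIST1H2AC, HIST1H1C and HIST1H2BD but not in HIST2H2BE or HIST1H4H. Without siCt 2 the log2 fold changes were -0.92 for HIST2H2BE and -0.34 for HIST1H1C, and the median of the 20 members was -0.17. Such a fit sets a single siCt library against 2 siAxl libraries, which alone give the spread, so its p-values are no added support for these calls. Among RNAs without a tail, 0 of the 5 tested were called in limma and in edgeR, 2 were lower in DESeq2 and 2 at an unadjusted p under 0.05. They were RN7SL1 (-1.06, limma adjusted p = 0.0772) and RN7SL2 (-1.50, 0.104), followed by RPPH1 (-1.52, 0.227). Over all genes, limma called 18.7%, edgeR 19.4% and DESeq2 20.1% in either direction. At an unadjusted p under 0.05 in limma, 2557 of 16064 genes were lower.

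**Figure D3:**
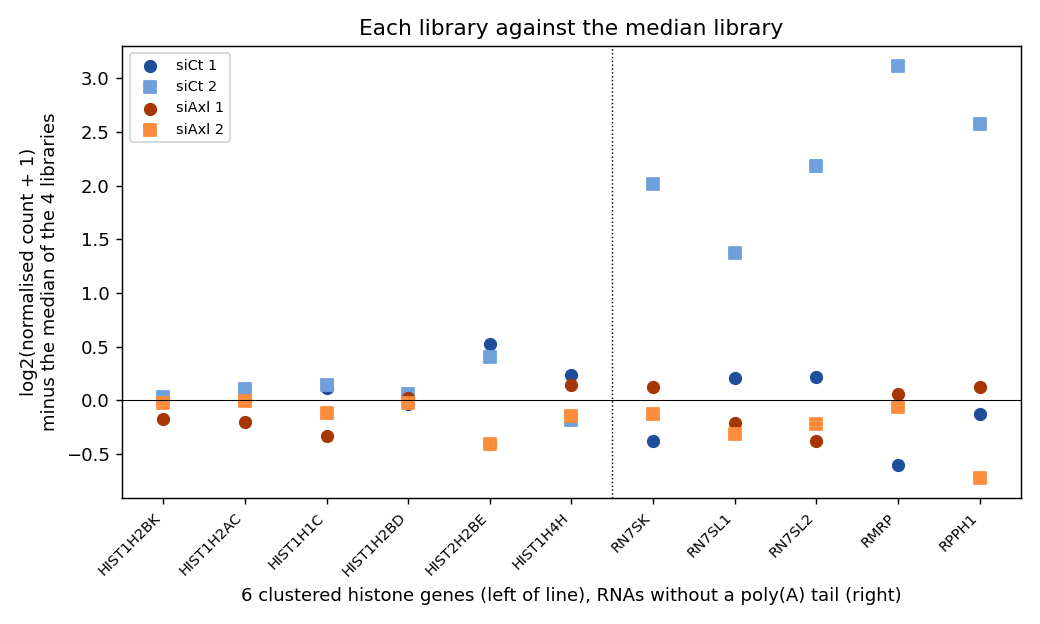
Each library's log2(normalised count + 1) minus the median of the 4 libraries, for the 6 most read clustered histone genes (left of the dotted line) and 5 RNAs without a poly(A) tail (right). The 5 RNAs were chosen for a high count in some library, which RMRP and RPPH1 reached only in siCt 2. The siCt 2 squares stand far above the other libraries for RN7SK, RN7SL1, RN7SL2, RMRP and RPPH1, while for the histone genes they lie close to siCt 1 or, in HIST1H4H, below it.

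The second comparison sets the libraries numbered 1 against those numbered 2 within the conditions, since the labels give both groups the same numbers without saying what a number stands for. In a limma fit with condition and number, 2 of the 20 members were called, against 14.5% of all genes tested (7.96% lower in number 1, 6.54% higher), so the members' share is below the background. This fit leaves 1 residual degree of freedom per gene before pooling, and a difference between numbers is also a difference between single libraries. The median log2 difference, number 1 minus number 2, was 0.080 for the members and -0.017 for all genes.

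HIST1H4H was higher in number 1. The number 1 libraries had 192 counts in siCt and 180 in siAxl, and the number 2 libraries 143 and 146 (log2 difference 0.36, SE 0.122, adjusted p = 0.0398). The difference was 0.42 within siCt and 0.29 within siAxl. HIST1H2AC was lower in number 1, with 1705 in siCt 1 and 1479 in siAxl 1 against 1831 and 1689 (log2 difference -0.15, SE 0.0497, adjusted p = 0.038). Within siCt that was -0.10 and within siAxl -0.19. The HIST1H2AC call was lost under library size, TMM and upper quartile scaling and in edgeR. Both calls were lost in edgeR with DESeq2 size factors and in DESeq2, which called no member, and none at an unadjusted p under 0.05, with 14 of the 20 members given no adjusted p. In edgeR 10.5% and in DESeq2 4.17% of all genes with an adjusted p were called by number. Without siCt 2, the library that stood apart in untailed RNAs, only a fit by number alone could be had, with differences of 0.34 for HIST1H4H and -0.089 for HIST1H2AC and neither called.

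The sums by type did not share a direction. H1 and H2A sums were lower in number 1 in both conditions, with log2 ratios of -0.0095 and -0.21 for H1 and -0.11 and -0.18 for H2A in siCt and siAxl. H4 sums were higher in number 1 in both, by 0.19 and 0.37. The H3 sum was nearly equal in siCt (-0.024) and higher in number 1 in siAxl (0.55), on fewer than 50 counts in every library. H2B differed little, at -0.032 and -0.079.

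Among members with the smallest p in each type, HIST1H1C had a log2 difference of -0.12 (adjusted p = 0.163) and HIST1H1E of 0.39 (0.361). For H2A the next was HIST1H2AG at -0.21 (0.471). For H2B these were HIST1H2BC at -0.35 (0.142) and HIST1H2BJ at -0.30 (0.25), both lower in number 1 in siCt and in siAxl. For H3, HIST1H3H stood at 0.71 (0.294) and HIST1H3C at 0.29 (0.707), and for H4 HIST1H4J stood at -0.74 (0.348). Number 1 was below number 2 in both conditions for 7 of the 20 members and above it in both for 7, against 38.4% and 28.3% of all genes.

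**Figure D4:**
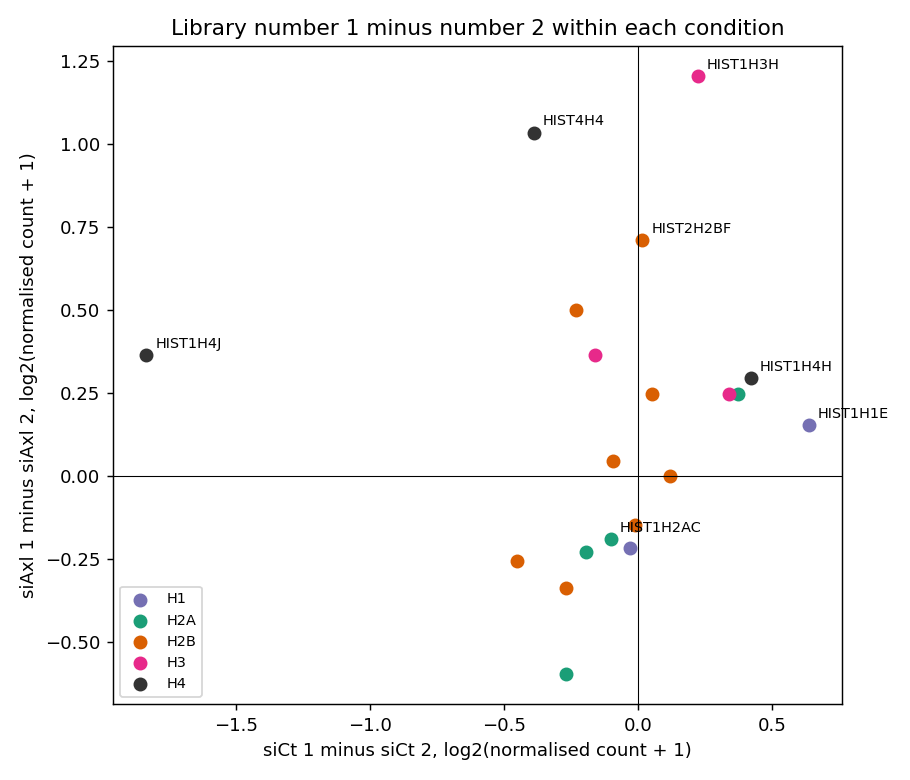
Difference in log2(normalised count + 1) between library number 1 and number 2 within siCt (x axis) and within siAxl (y axis), 1 point for each of the 20 clustered histone genes tested, coloured by type. HIST1H4H (0.42 and 0.29) and HIST1H2AC (-0.10 and -0.19) were called, while HIST1H4J (-1.84 and 0.36) and HIST4H4 (-0.39 and 1.03) went opposite ways in the conditions.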

How the data were processed

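The authors extracted total RNA on RNeasy columns, sequenced it on an Illumina HiSeq instrument and deposited 1 table of 63677 genes. Its 4 library columns hold a signal, the reads per gene that the authors divided by a DESeq2 size factor. The submitters' processing notes name CASAVA 1.8, TopHat2 2.0.10, HTSeq 0.5.3, DESeq2 1.4.5 and the build GRCh37. Annotation, counting mode, strand setting and read length are not given in the sources used here. The table's columns of fold changes, standard errors, test statistics and p-values were not used, and per-sample columns not used numbered 0. In each library 100% of values were whole multiples of 1 read (within 0.001 read), so reads were recovered.

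Of 83 protein-coding entries with the symbol prefixes, 12 repeats, all at 0, were dropped, and 23 pseudogene entries were left out. Genes passing edgeR's filterByExpr (16064) were tested with limma 3.58.1 (lmFit, eBayes with trend) on log2(normalised count + 1) in R 4.3.3, by condition alone or by condition and library number, with Benjamini-Hochberg adjustment over all of them and calls at an adjusted p under 0.05. Fold changes on this scale understate those of low genes. The planned count tests on recovered reads served as alternatives: edgeR 4.0.16 called 3122 genes by condition, and DESeq2 1.42.0 called 2598 of 12949. Other alternatives were scaling, filter, pseudocount, library number as a block, and each library left out. The scripts were tested on simulated data.

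By rule the text names AXL, in each type the 3 most read members and the 3 with the smallest p by condition (2 by number), the members known to be polyadenylated, and 3 genes per list. The members, the 6 lists and these rules were chosen with earlier results of these data known. NPAT, SLBP, ATRX, UBN1 and SET make up counts of 5 or fewer. The H3.3 genes and RMRP were chosen after their values were seen. Members and GENCODE 29 transcripts (GRCh38) were matched by symbol, for 71 of 71, since the table gives no coordinates.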

Additional observations from a re-analysis of the deposited data

How the results depend on the processing

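With 2 libraries per group the spread of a single gene is poorly known, and members with few reads had wide 95% intervals, the widest that of HIST1H4J by condition, from -1.16 to 1.74. By condition, the count of 2 members called held under every scaling, both pseudocounts, edgeR, DESeq2 and summed entries of a symbol. Testing each gene with at least 1 read in any library, which tests more genes, gave 1 call, HIST2H2BE (4.05% of all genes called), and a median of -0.32. Left-out libraries, where a lone library is assumed to vary like the other group, gave 1 to 2 calls and medians of -0.28 to -0.16. With library number as a replicate block, 5 members were called (7310 genes in all, or 45.5%, against 3006), adding HIST1H2AC, HIST1H2BK and HIST1H2BJ. Deviations of same-numbered libraries from their group means correlated at 0.271 across genes. The value for crossed numbers, -0.271, is fixed by it, since the 2 deviations within a group mirror each other. With 2 numbers and no label for them, this does not show that they pair the libraries.

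By number, 1 member was called under TMM, library size and upper quartile scaling and edgeR with TMM. With edgeR on DESeq2 size factors, 0 were called (3 at an unadjusted p under 0.05), with DESeq2 0 (0), with the filter of 1 read 0 (2), and with number alone 0 (0), where the condition adds to the spread. Left-out libraries, fitted by number alone, gave 0 calls and medians of -0.10 to 0.22. Signs turned for uncalled genes. HIST4H4 by condition gave 0.010 (pseudocount 8), 0.096 and 0.086 (edgeR) and 0.077 (DESeq2). With libraries left out, differences by condition ranged from -0.16 to 0.070 in HIST1H2AG, -0.061 to 0.39 in HIST1H2BC, -0.062 to 0.031 in HIST1H2BD, -0.022 to 0.22 in HIST1H2BN, -0.31 to 0.051 in HIST1H3B, -0.24 to 0.18 in HIST1H4H, -0.63 to 1.21 in HIST1H4J, -0.22 to 0.15 in HIST2H2AA3, -0.46 to 0.25 in HIST2H2BF and -0.52 to 0.51 in HIST4H4, and by number from -0.35 to 0.10 in HIST1H1C and -0.026 to 0.82 in HIST1H1E. Summed by type, a choice made after seeing the data, they ranged from -0.47 to -0.26 for H1, -0.25 to -0.076 for H2A, -0.19 to -0.11 for H2B, -0.87 to -0.32 for H3 and -0.24 to 0.13 for H4. Where no construction is named, the cause was not tested.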
